A study of Caenorhabditis elegans with 16 samples.

Results

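Deleting the mir-56 hairpin removed miR-56 from the miR-54 cluster of C. elegans embryos and left miR-54 and miR-55 in place. The comparison rests on the 4 libraries of strains MLC2394 and MLC2290, out of 16 libraries of 8 strains, chosen by their genotype labels, and on every miRNA strand counted in them. MLC2290 carries the deletions nDf67 and n4100 on chromosome IV, which take away mir-51, mir-52 and mir-53, so that the miR-54 cluster is its only source of the miR-51 family. MLC2394 carries the same deletions and, on chromosome X, mir-56(luc177), a CRISPR deletion of the precursor hairpin represented by this single allele. Each strain has 2 libraries, and each library holds the total RNA of 50 untreated whole embryos at the comma stage. The comparison asks how much of the family's amount goes when a single member of a shared transcript is taken out.

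A miRNA is cut from a hairpin precursor that has a 5p and a 3p arm. One strand of the duplex, the guide, is kept in an Argonaute protein and represses mRNAs that match its seed, and the other strand, the passenger, is mostly degraded. In the miR-51 family, miR-51 is an ortholog of the ancient miR-100, and the authors hold that the other members probably arose by convergence. The members share a seed, and embryos without the family fail in morphogenesis. mir-54, mir-55 and mir-56 are cut from a shared primary transcript and their guides are the 3p strands, whereas the guides of mir-51, mir-52 and mir-53 are the 5p strands.

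In the WBcel235 assembly with the Ensembl release 115 annotation, the cluster lies on the minus strand of chromosome X. mir-54 (WBGene00003282) runs from 13144996 to 13145094, mir-55 (WBGene00003283) from 13144827 to 13144924 and mir-56 (WBGene00003284) from 13144691 to 13144787. The mir-56 hairpin is therefore the last of the 3 in the direction of transcription. Its annotated length is 97 bases, of which miR-56-5p covers 13144746 to 13144770 and miR-56-3p 13144706 to 13144727. It is separated from mir-55 by 39 bases, and mir-55 from mir-54 by 71. The hairpins lie inside the span of F09A5.3, a protein-coding gene of the opposite strand, and no annotated exon of that gene overlaps them, while mir-55b is annotated opposite mir-55.

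The unit of measurement was the unique molecular identifier (UMI), a stretch of random bases that marks a single RNA molecule before amplification. The MLC2290 libraries held 131570 and 114351 UMIs on miRNAs, and the MLC2394 libraries 90513 and 33699, within a range of 18481 to 844718 over the series. Levels are given as CPM, the UMIs of a strand per 1000000 UMIs of the library on strands outside the miR-51 family, so that a change shared by all other miRNAs cannot be seen. Replicate 2 of MLC2394 was the shallowest of the 4 and had 1.55 reads per UMI, against 1.08 to 1.12 in the other libraries. All 4 libraries carry the same batch label, but each strain had its own adapter barcode, and effects of the barcode and of the deletion cannot be told apart. The 5p and 3p UMIs of the family were each assigned to a single strand, with none divided among strands.

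miR-56-3p, the guide of the deleted hairpin, was counted at 51591 and 53125 CPM in MLC2290 and at 251 and 127 CPM in MLC2394. The last values are 21 and 4 UMIs, against 5769 and 5242 in MLC2290, and the strains did not overlap. Its log2 fold change was -7.97 (SE 0.36, adjusted p = 1.48e-10). This and all further adjusted p-values come from the quasi-likelihood test of edgeR, adjusted over 162 strands by the Benjamini-Hochberg method, unless another tool is named. miR-56-5p, the passenger strand, was counted at 1538 and 1287 CPM in MLC2290, which are 172 and 127 UMIs. It had 0 UMIs in both libraries of MLC2394 and was at least 54.5-fold lower there, with a floor of 3 UMIs over both libraries (adjusted p = 3.15e-05). All 12 strands of the family passed the filter on low counts, which ran over all strains. Those of miR-56 were the only strands past an adjusted p of 0.05, 2 of 162 or 1.23%, and both fell.

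The residue of miR-56-3p in MLC2394 was compared with that in other strains that lack the hairpin. In MLC2393, which has the same chromosome IV deletions and luc180, a deletion of mir-55 and mir-56, miR-56-3p stood at 232 and 253 CPM. The difference of MLC2394 from MLC2393 was -0.21 on the log2 scale (SE 0.36, adjusted p = 0.812), and its sign turned without replicate 2 of MLC2394, to 0.054. In that contrast 1.85% of the strands passed. MLC1800 carries nDf67, n4100 and the X deletion nDf58, together with lucEx1057, an extrachromosomal array with the cluster, and the sources used here do not say whether the collected embryos had lost the array. There miR-56-3p stood at 5771 and 3711 CPM, and MLC2394 was lower by a log2 fold change of -4.50 (SE 0.34, adjusted p = 8.12e-08, with 3.7% of strands passing). Relative to the wild type N2, with 42196 and 46879 CPM, MLC2394 held 0.563% and 0.286% of the mean level.

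The strands of the loci deleted in both strains were also counted at residual levels. miR-51-5p, the guide of mir-51, had 35, 36, 24 and 3 UMIs in MLC2290 replicates 1 and 2 and MLC2394 replicates 1 and 2, and lay between 0.129% and 0.492% of wild type. miR-52-5p, the guide of the most abundant member in wild type, had 99, 89, 68 and 15 UMIs and lay between 0.23% and 0.434% of wild type. miR-53-5p had 6, 11, 1 and 1 UMIs. Their adjusted p-values in MLC2394 against MLC2290 were 0.567, 0.566 and 0.149. The passengers miR-51-3p, miR-52-3p and miR-53-3p together had a single UMI in the 4 libraries. The source of these residual UMIs was not tested.

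**Figure D1:**
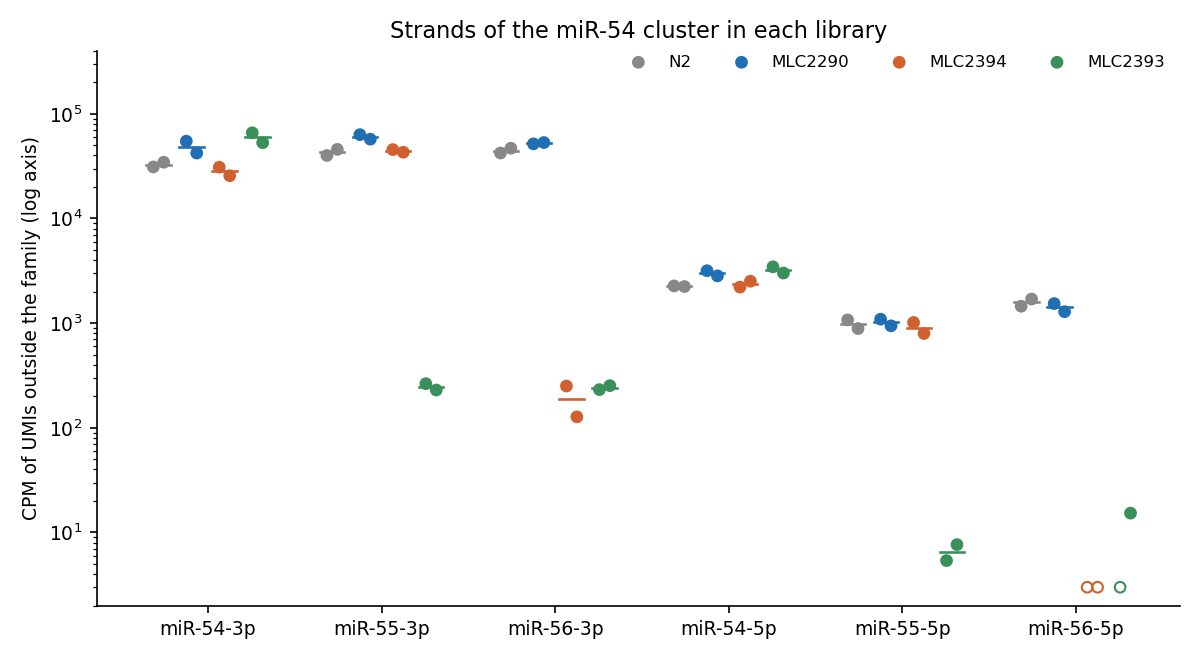
Level of each strand of the miR-54 cluster in CPM, UMIs per 1000000 UMIs outside the miR-51 family, on a log axis, in the 2 libraries of N2, MLC2290, MLC2394 and MLC2393. Each point is a library, bars are means where no library is at 0, and open circles, drawn at 3, are libraries with 0 UMIs; miR-56-3p lies at 251 and 127 in MLC2394 against 51591 and 53125 in MLC2290, while the strands of mir-54 and mir-55 stay within their order of magnitude between MLC2290 and MLC2394.

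miR-54-3p and miR-55-3p, the guides that MLC2394 keeps, were counted at lower levels than in MLC2290, without passing the test. miR-54-3p was counted at 54775 and 42129 CPM in MLC2290 and at 30896 and 25621 in MLC2394. Both MLC2394 libraries lay below both MLC2290 libraries, and the ratio of means was 0.583 ± 0.132 (SD propagated from n = 2 per strain). Its log2 fold change was -0.78 (SE 0.22, unadjusted p = 0.00325, adjusted p = 0.105 in edgeR's test), and 4 of the 162 strands had a smaller p. Under the alternatives of processing the adjusted p ranged from 0.0101 to 0.583. miR-55-3p was counted at 63199 and 57189 CPM in MLC2290 and at 45478 and 42904 in MLC2394. Again the strains did not overlap, with a ratio of 0.734 ± 0.060 (SD, n = 2 per strain) and a log2 fold change of -0.45 (SE 0.28, adjusted p = 0.507). Among all 162 strands tested, 35.8% were lower in MLC2394 in all 4 pairs of libraries, and 14.8% were higher in all 4.

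These values have to be read against the other miRNAs, whose levels also set the scale. The median log2 fold change of the 150 tested strands outside the family was -0.15. Relative to this median miR-54-3p stood at -0.63 and miR-55-3p at -0.30, and 4 other scalings moved the median to between -0.03 and 0.08 while leaving these differences between -0.63 and -0.62 and between -0.30 and -0.29. With single libraries left out the difference of miR-54-3p from the median ranged from -0.82 without MLC2290 replicate 2 to -0.39 without MLC2290 replicate 1, and that of miR-55-3p from -0.38 without MLC2290 replicate 2 to -0.13 without MLC2394 replicate 1. Of the 150 strands, 23 had a lower log2 fold change than miR-54-3p and 48 a lower one than miR-55-3p. Of the 26 that averaged at least 10000 CPM, as the kept guides do, 1 stood lower than miR-54-3p, namely miR-86-5p at -0.78, and 5 stood lower than miR-55-3p.

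The passenger strands gave a second reading of the kept hairpins. miR-54-5p was counted at 3166 and 2828 CPM in MLC2290 and at 2209 and 2514 in MLC2394. The strains did not overlap, and the log2 fold change was -0.35 (SE 0.29, adjusted p = 0.614). miR-55-5p was counted at 1091 and 943 CPM in MLC2290 and at 1015 and 796 in MLC2394, on 122, 93, 85 and 25 UMIs. Here the strains overlapped, and the log2 fold change of -0.15 (SE 0.33, adjusted p = 0.908) lay at the median of the other strands and turned to between 0.037 and 0.074 under 3 other scalings. Relative to N2, the MLC2394 libraries held 94.4% and 78.3% of the mean level of miR-54-3p and 106% and 100.2% of that of miR-55-3p, and the MLC2290 libraries 167% and 129%, and 148% and 134%.

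The summed guides of the cluster, a measure of the family dose on this scale, came to 169566 and 152442 CPM in MLC2290 and to 76624 and 68652 in MLC2394. The ratio of means was 0.451 ± 0.0488 (SD, n = 2 per strain), and no MLC2394 library reached an MLC2290 library (p = 0.333 by two-sided exact permutation, which is the lowest p possible for 2 libraries against 2). Of the difference of 88366 CPM on this scale, miR-56-3p made up 59.0%, miR-54-3p 22.9% and miR-55-3p 18.1%. The changes of miR-54-3p and miR-55-3p did not pass the test, and the split was not computed under other scalings. With miR-56-3p set aside, miR-54-3p and miR-55-3p together had a ratio of 0.667 ± 0.0957 (SD, n = 2 per strain, exact permutation p = 0.333). Under other settings of the processing this ratio ranged from 0.646 to 0.785, and that of the summed guides from 0.437 to 0.531. The family as a whole held 15.0% and 13.7% of all miRNA UMIs in MLC2290 and 7.49% and 6.77% in MLC2394 (95% Wilson intervals at most 0.536 percentage points wide, which cover counting error only).

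Within a library the scaling cancels, so that the ratio of the kept guides can be read directly. miR-55-3p exceeded miR-54-3p in all 4 libraries, by 1.15 and 1.36 times in MLC2290 and by 1.47 and 1.67 times in MLC2394. The mean ratio was 1.26 ± 0.144 and 1.57 ± 0.143 (SD, n = 2), the strains did not overlap, and the exact two-sided permutation p was 0.333. In N2 the ratio was 1.29 and 1.33. The passengers did not show the same order, since miR-55-5p over miR-54-5p was 0.345 and 0.333 in MLC2290 and 0.459 and 0.316 in MLC2394, higher in 2 of 4 pairs (exact permutation p = 1). In MLC2290 the 3 guides were present in similar amounts, with miR-54-3p at 32.3% and 27.6%, miR-55-3p at 37.3% and 37.5% and miR-56-3p at 30.4% and 34.8% of their sum. In MLC2394 miR-54-3p and miR-55-3p supplied 40.3% and 59.4% of the sum in replicate 1 and 37.3% and 62.5% in replicate 2, with Wilson intervals up to 4.08 points wide.

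Strand use was measured as the passenger's share of both strands of a hairpin. For miR-54 it was 5.46% (Wilson interval 4.94 to 6.04) and 6.29% (5.61 to 7.04) in MLC2290, and 6.67% (5.80 to 7.66) and 8.94% (7.23 to 11.0) in MLC2394. The interval of MLC2394 replicate 1 overlaps those of both MLC2290 libraries and that of MLC2394 replicate 2 overlaps neither, and the difference of means, 1.93 percentage points, was 0.80 points without replicate 2 of MLC2394 and 3.06 without replicate 1. For miR-55 the share was 1.70% (1.42 to 2.02) and 1.62% (1.33 to 1.98) in MLC2290 and 2.18% (1.77 to 2.69) and 1.82% (1.24 to 2.67) in MLC2394. All 4 of these intervals overlap. In both hairpins the share was higher in 4 of 4 pairs (exact permutation p = 0.333 each), and in N2 it was 6.80% and 6.10% for miR-54 and 2.62% and 1.91% for miR-55. For miR-56 the passenger share was 2.90% and 2.37% in MLC2290, and in MLC2394 the 21 and 4 guide UMIs were too few to measure it.

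**Figure D2:**
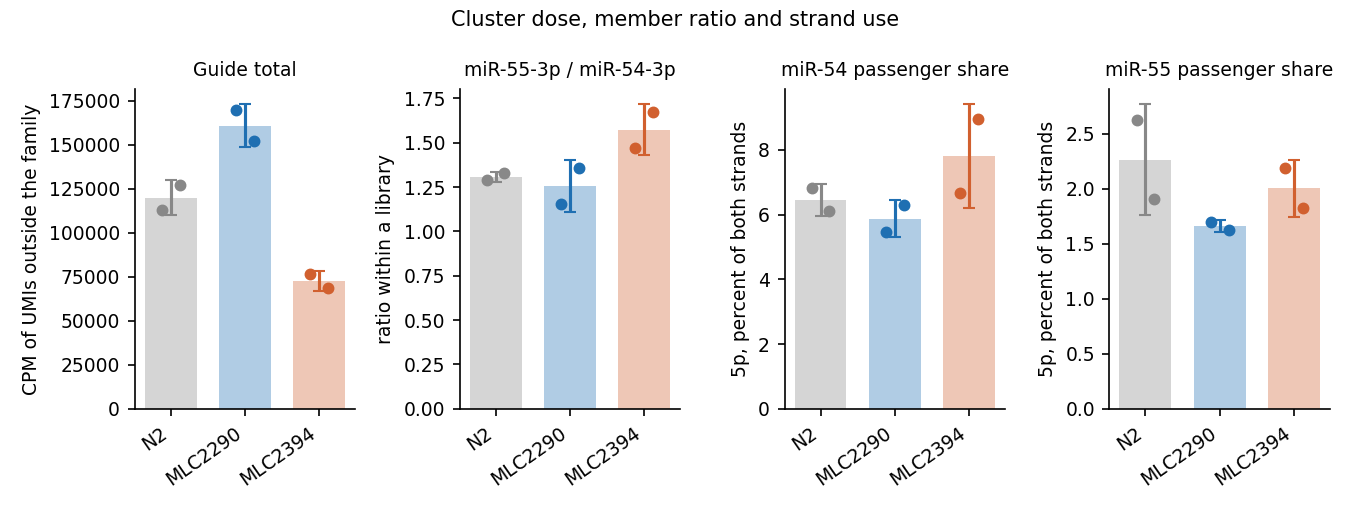
Sum of the 3 guide strands in CPM, UMIs per 1000000 UMIs outside the family, ratio of miR-55-3p to miR-54-3p within a library, and share of the 5p strand in both strands of miR-54 and of miR-55 in percent, in N2, MLC2290 and MLC2394. Bars are means of 2 libraries, error bars the SD and points the libraries; the guide total is 161004 ± 12108 in MLC2290 and 72638 ± 5637 in MLC2394, and the miR-54 passenger shares of N2, 6.80% and 6.10%, lie among those of both mutant strains.

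MLC2393, the next step of the deletion series, keeps miR-54 alone, and its miR-54-3p level was set beside that of MLC2394. miR-54-3p was counted at 65823 and 52931 CPM in MLC2393, above both MLC2394 libraries, and the log2 fold change of MLC2394 over MLC2393 was -1.07 (SE 0.22, adjusted p = 0.0129). With TMM the value was -0.82 (adjusted p = 0.137), and it lost the call also under median of ratios, without the miR-35 family in the scale, and without replicate 1 of MLC2393 (adjusted p = 0.203), replicate 1 of MLC2394 (0.0554) or replicate 2 of MLC2394 (0.304). For the passenger miR-54-5p, at 3450 and 3010 CPM in MLC2393, the log2 fold change was -0.46 (SE 0.29, adjusted p = 0.512). This contrast shares the MLC2394 libraries with that against MLC2290, in which miR-54-3p was called only when the fit was limited to the 4 libraries (-0.78, adjusted p = 0.0101).

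Among the 150 tested strands outside the family, 0 passed an adjusted p of 0.05 in MLC2394 against MLC2290. At an unadjusted p under 0.05 there were 18 such strands, 4 higher and 14 lower in MLC2394, and 22 of all 162, or 13.6%. This split depends on the scale: it was 8 higher and 7 lower with TMM, and 11 higher and 6 lower with median of ratios. DESeq2 called 2, miR-86-5p and miR-228-5p, and edgeR called 11 when only the 4 libraries entered the fit.

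**Figure D3:**
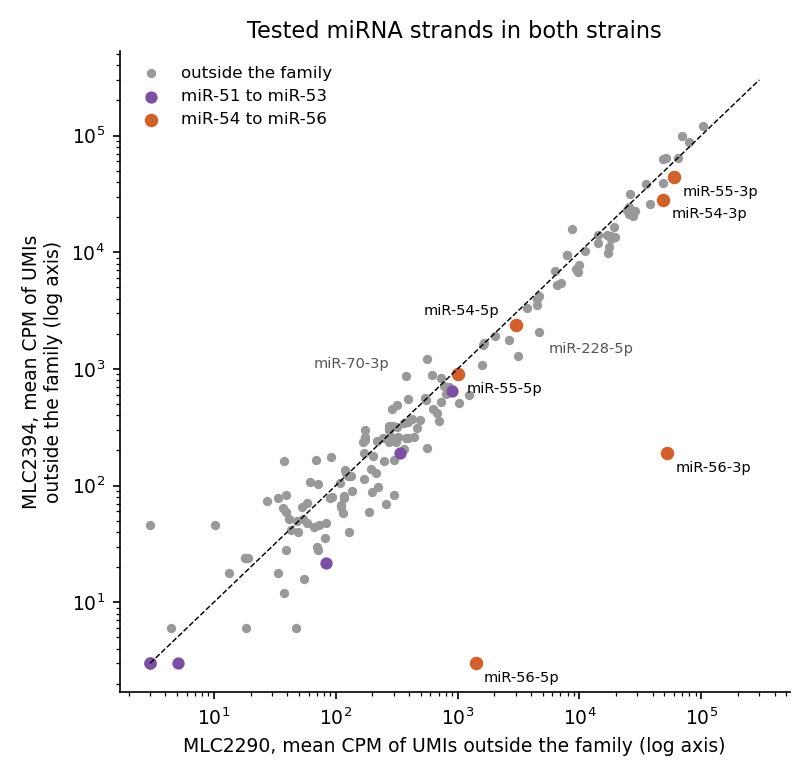
Mean level of each of the 162 tested strands in MLC2394 against MLC2290, in CPM, UMIs per 1000000 UMIs outside the miR-51 family, both axes logarithmic, values under 3 drawn at 3. Points are strands, the dashed line marks equal levels, and the miR-56 strands lie farthest below it, with miR-56-3p at 0.361% and miR-56-5p at 0% of the MLC2290 mean.

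The 10 most abundant strands outside the family, which made up 60.1% of the other UMIs, were miR-35-3p to miR-42-3p, miR-58a-3p and miR-72-5p. The miR-35 to miR-42 guides belong to a family that is made in the embryo and is essential for embryogenesis. Their sum was 455371 and 498473 CPM in MLC2290 and 537455 and 554404 in MLC2394, which is 45.5%, 49.8%, 53.7% and 55.4% of the UMIs outside the miR-51 family (Wilson intervals at most 1.10 points wide). The sum was higher in MLC2394 in 4 of 4 pairs (ratio 1.14 ± 0.0773, SD, n = 2 per strain, exact permutation p = 0.333). These strands are themselves much of the scale, and with the sum outside both families the ratio was 1.31, and 1.35 with median of ratios. In single members 0 of 8 passed the test, 4 were higher in all pairs and 1 was lower, against 14.8% and 35.8% of all 162 strands. Among the higher was miR-39-3p with 69459, 69968, 85832 and 113815 CPM (log2 fold change 0.52, SE 0.18, adjusted p = 0.149), and the lower was miR-38-3p with 49570, 48098, 42791 and 35551 (-0.32, SE 0.28, adjusted p = 0.65). miR-36-3p was counted at 52396, 77113, 66091 and 62159 CPM, a log2 fold change of -0.01 that turned to between 0.10 and 0.22 with 4 other scalings. The median over the 8 members was 0.19, against -0.15 over all tested strands outside the family.

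In the other groups 0 strands passed as well. The 4 miR-58 guides, relatives of insect bantam, had a median of -0.03, from miR-58a-3p with 55526, 48027, 66592 and 60886 CPM (0.30, SE 0.21, adjusted p = 0.566) to miR-80-3p at -0.46 (SE 0.29, adjusted p = 0.50). The 3 miR-72 family guides had a median of -0.35. Among them miR-72-5p was counted at 38240, 38511, 26346 and 25589 CPM, with replicates close together and the strains apart (-0.56, SE 0.23, adjusted p = 0.261). The 3 miR-2 family strands listed here, which may not be the whole family, had a median of 0.15, with miR-43-3p at 0.15 and miR-250-3p at 0.25. The most abundant of them, miR-2-3p, was at -0.26 (SE 0.20, adjusted p = 0.566). The sum of the 3 had a ratio of 0.89 with overlapping strains. The miR-44 family had a median of 0.24 over 3, in which the UMIs of miR-44-3p and the identical miR-45-3p are divided between them.

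The miR-64 cluster is another set of neighbouring hairpins, which the deletion does not touch. Its guides miR-64-5p, miR-65-5p and miR-66-5p were lower in MLC2394 in all pairs, at log2 fold changes of -0.24, -0.38 and -0.55 (adjusted p-values from 0.149 to 0.653). Of all 162 tested strands, 35.8% were lower in all pairs. miR-229-5p was counted at 11000 and 6435 CPM in MLC2290 and at 24841 and 7034 in MLC2394, so that its log2 fold change of 0.88 (SE 0.46, adjusted p = 0.451) turned to -0.31 without replicate 1 of MLC2394.

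Among the 7 tissue strands 0 passed, with a median of -0.25, 4 lower and 0 higher in all pairs, against 35.8% and 14.8% of all 162 strands. miR-228-5p, known from glia, was counted at 4972, 4287, 2114 and 2005 CPM, and had the lowest fold change of the 7 (-1.17, SE 0.33, unadjusted p = 0.0029, adjusted p = 0.105 in edgeR's test). DESeq2 called it with an adjusted p of 0.024, the fit without a filter with 0.0445 and the fit limited to the 4 libraries with 0.00124. The other arm of its hairpin, miR-228-3p, had 27, 24, 27 and 6 UMIs. There the strains overlapped, and the log2 fold change was 0.16 (SE 0.40, adjusted p = 0.908). miR-60-3p, an intestinal miRNA, was counted at 10991, 8543, 6807 and 6652 (-0.54, SE 0.23, adjusted p = 0.313). miR-1-3p, the conserved muscle miRNA, was counted at 18065, 15415, 13304 and 14800 (-0.25, SE 0.40, adjusted p = 0.823). The remaining strand that was lower in all pairs was miR-57-5p (-0.37, SE 0.29, adjusted p = 0.567). For the other tissue strands the strains overlapped. These were miR-124-3p at -0.15 (SE 0.36), miR-79-3p at -0.11 (SE 0.24) and lsy-6-3p at 0.15 (SE 0.89). In whole embryos fewer cells of a type and less RNA per cell cannot be told apart.

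The 5 strands of the heterochronic pathway, which time larval development, had at most 64 UMIs in a library of the 4. let-7-5p had 43, 25, 40 and 5 UMIs (log2 fold change 0.12, SE 0.71). miR-48-5p had 22, 64, 52 and 4 (-0.02, SE 0.96), and miR-84-5p had 2, 8, 4 and 1. Their sum lay at 626 and 1095 CPM in MLC2290 and at 1445 and 446 in MLC2394, and the strains overlapped. lin-4-5p, the founding member of the pathway, had 3, 11, 20 and 3 UMIs. miR-241-5p, a let-7 relative, had 0 UMIs in both MLC2290 libraries and 5 and 1 in MLC2394 (adjusted p = 0.313). With a floor of 3 UMIs over both MLC2290 libraries this is 3.66-fold more, without allowance for the counting error of so few UMIs. The median over the 5 strands was 0.12, also with miR-241-5p at this floored value.

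**Figure D4:**
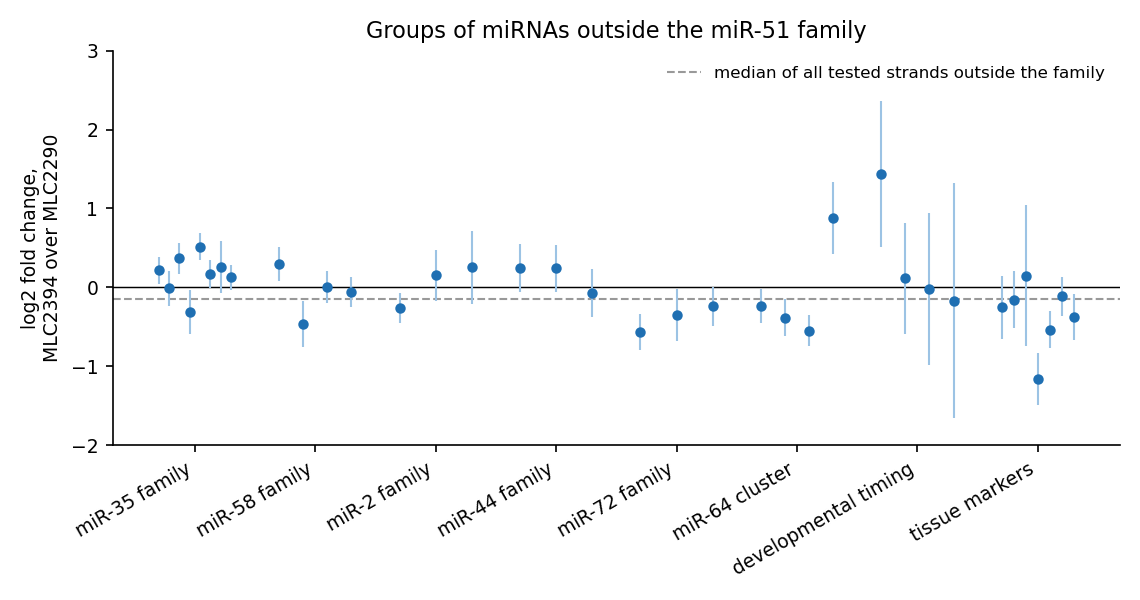
Log2 fold change of MLC2394 over MLC2290 for the tested members of 8 groups of miRNAs outside the miR-51 family. Points are strands, bars the standard error derived from the F statistic of edgeR's test and the dashed line the median of all 150 tested strands outside the family, -0.15; miR-241-5p, at 0 UMIs in MLC2290, is not drawn, and miR-228-5p lies lowest at -1.17.

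Outside these groups, the strands with the lowest and the highest fold changes, among those without overlap and with at least 100 CPM on average, mostly had few UMIs. The lowest were miR-36-5p at -1.92, miR-259-5p at -1.66, miR-236-5p at -1.32, miR-231-3p at -1.23 and miR-1829c-5p at -1.22. miR-36-5p, the passenger of a miR-35 family hairpin, had 43, 22, 6 and 3 UMIs (SE 0.65, adjusted p = 0.149). miR-259-5p had 41, 15, 9 and 1 UMIs, and its value ranged from -2.998 without replicate 1 of MLC2394 to -0.89 without replicate 1 of MLC2290. miR-1829c-5p had 18, 21, 10 and 0 UMIs, and its value was -0.64 without replicate 2 of MLC2394, while without replicate 1 the strain is at 0. miR-231-3p had 428, 242, 160 and 21 UMIs, and its value of -1.23 was -0.72 without replicate 2 of MLC2394 and -2.23 without replicate 1. The highest were miR-4936-3p at 2.26, miR-70-3p at 1.18, miR-42-5p at 1.14, miR-250-5p at 1.05 and miR-38-5p at 0.75. miR-70-3p was counted at 286 and 466 CPM in MLC2290 and at 740 and 987 in MLC2394 (SE 0.62, adjusted p = 0.451). miR-4936-3p had 5, 3, 22 and 2 UMIs, and without replicate 1 of MLC2394 its value was 0.74. With single libraries left out miR-70-3p ranged from 0.87 to 1.57, miR-42-5p from 0.62 (without MLC2394 replicate 1) to 1.47, miR-250-5p from 0.48 (without MLC2394 replicate 1) to 1.39 and miR-38-5p from 0.45 (without MLC2290 replicate 1) to 1.11. The 50 minor strands outside the family had a median of -0.11 and the 100 major strands of -0.17. The adjusted p-values of these 10 strands lay between 0.149 and 0.489.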

How the data were processed

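Small RNA libraries of whole comma-stage embryos were counted per miRNA strand. The authors deposited estimated counts without normalization: UMIs (and reads) divided among the strands they match, with fractions in 7.15% of the values, and a count in which each strand takes its UMIs in full. The submitters' processing notes name the WBcel235 build. The aligner and the miRNA annotation are not given in the sources used here. Strands absent from a list were taken as 0. Spike-ins are not used here, so levels are relative to the UMIs outside the miR-51 family (CPM).

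UMIs were rounded and fitted in edgeR 4.0.16 (R 4.3.3; quasi-likelihood test, all 16 libraries, 1 mean per strain, no covariate). A minimum of 10 UMIs in at least 2 libraries left 162 strands, 2 of which had 0 UMIs in the 4 libraries compared. Of 366 strands in the series, 354 lie outside the family. The biological coefficient of variation was 26.2%, and the fit was tested on simulated data. The threshold for a call was an adjusted p of 0.05. The SE of a log2 fold change is its absolute value divided by the square root of the F statistic of edgeR's test. Totals, ratios and shares were compared by exact permutation in Python 3.11.15 (numpy 2.4.6, pandas 2.3.3, scipy 1.17.1), and figures were drawn with matplotlib 3.10.9. Replicates differed beyond counting noise (chi-square per degree of freedom 20.5 in MLC2290 and 10.8 in MLC2394). They are described as biological duplicates of a strain. The p-values of edgeR rest on the spread between replicates estimated over all 16 libraries, and those of the exact permutation on the 4 libraries compared.

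Named were the strands of mir-51 to mir-56, every called strand, the 10 most abundant others, the 5 highest and 5 lowest fold changes without overlap at a mean of at least 100 CPM, and examples of the lists. miR-86-5p, and the level of 10000 CPM used beside the kept guides, were chosen after the values were seen. The members and lists were chosen with earlier results of these data known. Alternatives were 4 scalings, UMIs in full, reads, no filter, at least 50 UMIs, only the 4 libraries in the fit, DESeq2 1.42.0, the replicate number as a block, and each library left out in turn. For the contrasts with MLC2393 and MLC1800 and for the miR-35 to miR-42 sum, part of them were chosen after seeing the data.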

Additional observations from a re-analysis of the deposited data

How the results depend on the processing

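Under all alternatives miR-56-3p and miR-56-5p stayed lower in MLC2394 and past the threshold, with log2 fold changes of miR-56-3p from -8.18 to -7.76, and from -8.67 to -7.70 with each library left out. The count of called strands was 14 (3 higher, 11 lower) with only the 4 libraries in the fit and 4 with DESeq2. Outside the family, where the count was 0, it became 11 with 4 libraries, 2 with DESeq2 and 1 without a filter. With 4 libraries miR-54-3p was called at -0.78. The log2 fold change of miR-55-5p turned to 0.037 with TMM, 0.074 with median of ratios and 0.050 with the sum outside the miR-51 and miR-35 families. That of miR-36-3p turned to 0.18, 0.22 and 0.18 under the same scalings, 0.10 with the sum of all miRNA UMIs, and 0.29 without MLC2290 replicate 2 and 0.030 without MLC2394 replicate 2, with a range from -0.27 to 0.29 over the libraries left out. That of miR-229-5p turned to -0.31 without MLC2394 replicate 1 and was 1.51 without its replicate 2. Between MLC2394 and MLC2393, miR-56-3p turned to 0.026, 0.033 and 0.016 under TMM, median of ratios and the sum outside both families, and ranged from -0.92 to 0.054 with libraries left out. In the same contrast miR-54-3p lost its call under these scalings, at -0.82, -0.80 and -0.83, and ranged from -1.22 to -0.90 with libraries left out. Why these values moved was not tested.

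When single libraries were left out, the calls stayed at 2, miR-54-3p ranged from -0.95 to -0.58, miR-55-3p from -0.52 to -0.37, the ratio of the guide totals from 0.426 to 0.476, that of the kept guides from 0.614 to 0.729, that of miR-55-3p over miR-54-3p from 1.16 to 1.36, and that of the miR-35 to miR-42 sum from 1.10 to 1.20 (1.14 to 1.35 under the other settings). Where a strain then has 1 library, its spread is taken from the other strains. Under the other settings the ratio of the guide totals ranged from 0.437 to 0.531 and that of the kept guides from 0.646 to 0.785. With the replicate number as a block, miR-54-3p stood at -0.77 (adjusted p = 0.0709 in edgeR's test) and the calls at 2, and no call changed. In MLC2290 and MLC2394 the deviations of replicates with the same number had a correlation of -0.05 over 150 strands. Counting noise can hide a shared deviation, and other strains were not included, so this cannot decide what the block stands for. Depth limits replicate 2 of MLC2394 most, in which 3 UMIs stand for 95.5 CPM.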
